A study of Mus musculus with 24 samples.

Results

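The 8 chow libraries described here are the 4 with the most and the 4 with the least skeletal muscle transcript among the 12 RNA sequencing libraries of inguinal subcutaneous fat from chow-fed mice. The series holds 24 libraries in all. Members were chosen by measured levels: each chow library was scored by the mean of log2(CPM + 1), with CPM its counts scaled to a column total of 1e6, over Acta1, Myh4, Ckm, Tnnt3 and Atp2a1. The 4 highest scores belonged to WT-Tg 6, WT-Tg 4, WT-Tg 5 and D316A-Tg 8, called muscle-rich below, and the 4 lowest to WT-Tg 3, D316A-Tg 7, WT-Tg 2 and D316A-Tg 11, called muscle-poor. Because these levels chose the libraries, the comparison between them is a description without a test.

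All animals were C57BL/6J mice with a transgenic γ1 subunit of AMPK, the AMP-activated kinase complex that senses cellular energy. The WT-Tg groups carried the wild-type subunit and the D316A-Tg groups a gain-of-function form, D316A. The age was 16 weeks in the chow groups and 24 weeks in the high-fat diet (HFD, 45% fat) groups, and each of the 4 groups had 6 libraries. No group without a transgene was analysed here, and the labels name no promoter or cell type that drives it. Nor do the labels say whether each library came from its own animal, and p-values here measure only the spread between samples, which may be technical.

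Skeletal muscle fibres contract when myosin of the thick filament pulls on actin of the thin filament, under control of calcium that the ryanodine receptor releases from the sarcoplasmic reticulum and the SERCA pumps return. Fast fibres and slow fibres use different genes for the same parts of this machine, and fast fibres of the mouse are further divided by their myosin heavy chain, Myh4 (type IIB), Myh1 (type IIX) or Myh2 (type IIA). The inguinal fat pad lies under the skin next to the muscles of the flank and thigh. Calcium pumping by SERCA and creatine cycling are also described as heat-producing cycles of fat cells that do not need Ucp1, the uncoupling protein of brown fat, and several of their genes are muscle genes too.

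The 5 marker genes are each a part of the fast fibre. Acta1 (ENSMUSG00000031972, chromosome 8, 123891769 to 123894751, minus strand) encodes skeletal α-actin, and Myh4 (ENSMUSG00000057003, chromosome 11, 67238029 to 67260446, plus strand) the type IIB myosin heavy chain. Ckm (ENSMUSG00000030399, chromosome 7, 19404776 to 19422841, plus strand) encodes muscle creatine kinase, and Tnnt3 (ENSMUSG00000061723, chromosome 7, 142498836 to 142516009, plus strand) fast troponin T. Atp2a1 (ENSMUSG00000030730, chromosome 7, 126445858 to 126463108, minus strand) encodes SERCA1, the calcium pump of fast fibres. All 5 are protein-coding in GENCODE M21 on GRCm38. Exons of Ckm and Atp2a1 share 15.5% and 21.9% of their length with other annotated genes, and whether counting used strand is not given in the sources used here, so their counts carry that uncertainty.

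Because these genes move together across the libraries, the promoters of Acta1 and Myh4 are shown, from 250 bases before to 50 after the RefSeq start on GRCm38.p6, 5′ to 3′ on the gene's strand. Capitals mark 4 motifs searched on both strands: the E-box CANNTG bound by myogenic basic helix-loop-helix factors, the TATA box TATAAA, the MEF2 site and the CArG box bound by serum response factor. The Acta1 window is chr8:123894726-123895025, minus strand, and the Myh4 window chr11:67237562-67237861, plus strand.
Acta1: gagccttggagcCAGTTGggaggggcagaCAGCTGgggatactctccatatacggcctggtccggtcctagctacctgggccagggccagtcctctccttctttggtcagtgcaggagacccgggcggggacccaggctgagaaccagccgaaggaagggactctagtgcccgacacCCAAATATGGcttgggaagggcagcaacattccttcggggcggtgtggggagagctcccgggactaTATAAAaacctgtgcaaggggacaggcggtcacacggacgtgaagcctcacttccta
Myh4: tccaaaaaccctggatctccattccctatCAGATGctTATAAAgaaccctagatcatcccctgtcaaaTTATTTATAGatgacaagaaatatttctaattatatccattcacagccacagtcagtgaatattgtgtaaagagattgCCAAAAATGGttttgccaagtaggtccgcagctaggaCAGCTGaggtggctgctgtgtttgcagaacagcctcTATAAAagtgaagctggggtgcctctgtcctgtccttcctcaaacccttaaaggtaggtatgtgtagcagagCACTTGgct

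The Acta1 window held 2 E-boxes, 1 TATA box, 1 CArG box and 0 MEF2 sites. The Myh4 window held 3 E-boxes, 3 TATA boxes, 1 MEF2 site and 1 CArG box, with 1 of the TATA matches lying inside the MEF2 site. The windows of Ckm and Atp2a1 each held 1 E-box and none of the other 3 motifs. Tnnt3 was not in the promoter table. Of all 32851 RefSeq promoter windows of 300 bases, 72.3% held an E-box, 13.6% a TATA box, 3.19% a MEF2 site and 1.63% a CArG box. Among the 125 windows that matched 104 of the genes set apart as higher in muscle-rich libraries (defined below), these shares were 86.4%, 23.2%, 13.6% and 4.8%. These are matches of letters, with no test and no measure of binding.

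The muscle score fell steeply down the ranking. It was 10.75 in WT-Tg 6, 8.97 in WT-Tg 4, 7.41 in WT-Tg 5 and 6.13 in D316A-Tg 8, the last library inside the muscle-rich set. WT-Tg 1, just outside it, scored 5.74. D316A-Tg 12 and D316A-Tg 10 scored 5.11 and 4.10, and D316A-Tg 9, at 1.48, lay just outside the muscle-poor set, whose members scored 1.27, 1.23, 1.07 and 0.96. The upper boundary thus fell within a gradient, and the lower boundary within a group of 5 libraries with nearly equal scores.

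Levels of single genes are given from here on as CPM after TMM scaling of the 12 chow libraries, with muscle-rich libraries in the order WT-Tg 6, WT-Tg 4, WT-Tg 5, D316A-Tg 8 and muscle-poor libraries in the order WT-Tg 3, D316A-Tg 7, WT-Tg 2, D316A-Tg 11. Myh4 was at 3593, 782, 187 and 46.7 CPM in the muscle-rich libraries and at 0, 0.653, 0.124 and 0 CPM in the muscle-poor libraries. Acta1 was at 1663, 355, 253 and 106 CPM against 6.36, 18.1, 3.17 and 3.71 CPM. Both were highest in WT-Tg 6, and no muscle-poor library reached the lowest muscle-rich library.
Ckm was at 1538, 345, 135 and 56.8 CPM against 0.103, 0.0816, 0.0621 and 0 CPM, the muscle-poor values resting on 4 counts in all. Tnnt3 was at 1237, 315.6, 126 and 56.3 CPM against 2.43, 0.734, 3.23 and 2.37 CPM. Atp2a1 was at 1659, 373, 158 and 56.7 CPM against 1.03, 0.816, 0.496 and 0.576 CPM. Proportions among the markers were close to fixed for some and not for others. In the muscle-rich libraries the count ratio to Tnnt3 was 1.24, 1.09, 1.07 and 1.01 for Ckm and 1.34, 1.18, 1.25 and 1.01 for Atp2a1. It varied more for Acta1, at 1.34, 1.12, 2.01 and 1.89, and for Myh4, at 2.90, 2.48, 1.49 and 0.83.

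**Figure D1:**
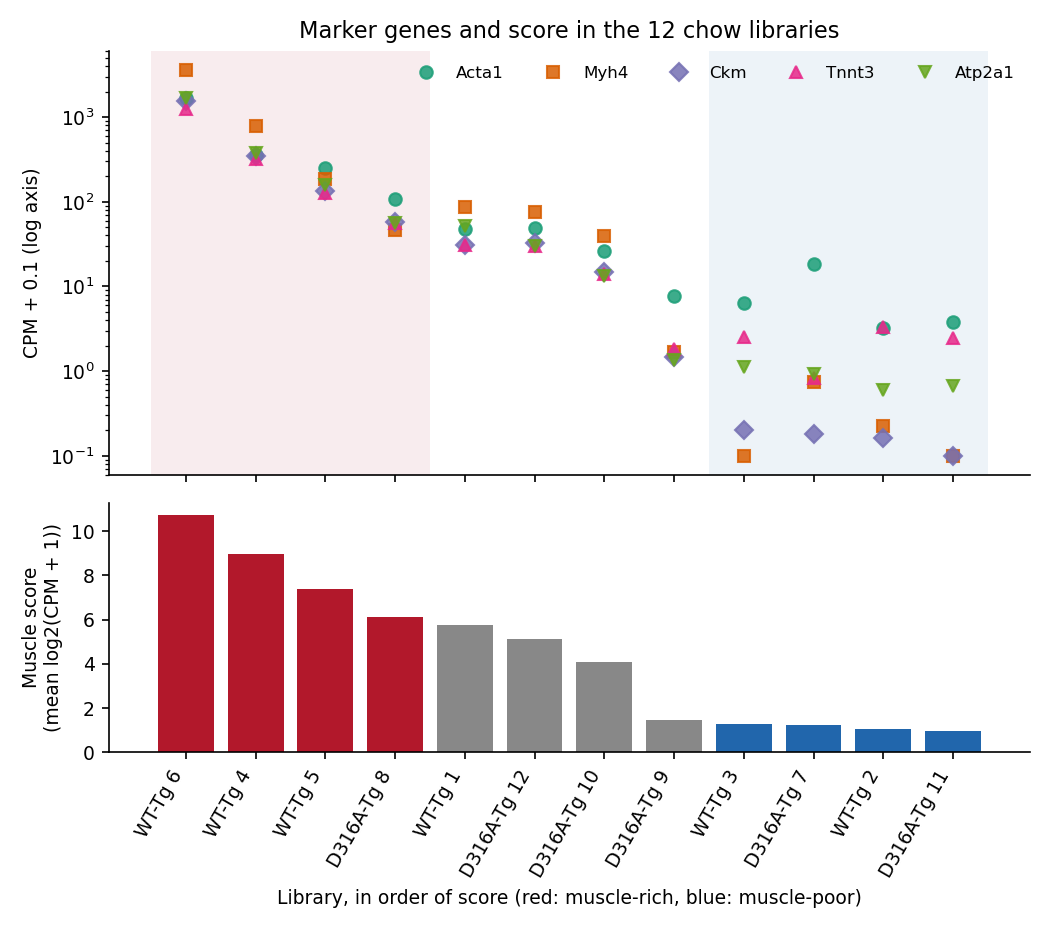
CPM of the 5 marker genes plus 0.1 on a log axis (top) and the muscle score (bottom) in the 12 chow libraries in order of score, with red for muscle-rich, grey for middle and blue for muscle-poor. All 5 genes fall from WT-Tg 6 through WT-Tg 4 and WT-Tg 5 to D316A-Tg 8, while further down single genes depart from the order of the score, which runs from 10.75 to 0.96: Myh4 is at 46.7 CPM in D316A-Tg 8 and at 86.2 CPM in WT-Tg 1.

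Library totals were 13254536 to 17766546 counts on chow and 16373731 to 22748132 on HFD. The thick and thin filament lists together made up 0.0907% to 1.18% of all counts in muscle-rich libraries and 0.0117% to 0.0238% in muscle-poor libraries. With the Z-disc, calcium and energy lists added, the share in WT-Tg 6 was 1.94%. Transcript of these lists was thus a small share of the RNA even there, and muscle genes outside them were not counted. In bulk tissue, more muscle cells in a sample and more muscle RNA per cell cannot be told apart. Ranking the libraries by the other filament genes in place of the markers gave the same 4 muscle-rich libraries, but in the muscle-poor set D316A-Tg 9 took the place of WT-Tg 3. Genotype was not balanced: 3 of 4 muscle-rich and 2 of 4 muscle-poor libraries were WT-Tg. Nor was the content of B lymphocytes, whose receptor component Cd79a was at 0.884, 285, 0.192 and 181 CPM in the muscle-rich and at 247, 0.163, 283 and 92.6 CPM in the muscle-poor libraries. Thus 2 muscle-rich and 3 muscle-poor libraries were rich in lymphocyte transcript, although the labels say that the lymph node was removed. Adipocyte transcripts were abundant throughout, with the adipokine Adipoq at 1320 to 3956 CPM in muscle-rich and 1756 to 4885 CPM in muscle-poor libraries.

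A gene was called set apart when its CPM did not overlap between the 4 muscle-rich and the 4 muscle-poor libraries and its fold change, fitted with the edgeR quasi-likelihood model, was at least 2 in either direction. Of 15560 genes that passed the filter on low counts, 144 were set apart as higher in muscle-rich libraries, which is 0.925%, and 2 as lower, which is 0.0129%. The filter took the muscle-rich and muscle-poor sides as its groups. A gene near 0 in muscle-poor libraries could thus pass only through the muscle-rich ones, and counts among genes that passed are not independent of the difference. The lists of muscle parts, namely both filaments, the Z-disc and membrane skeleton, calcium handling, energy supply and the neuromuscular junction, held 53 of the 144. The median log2 fold change over all genes tested was -0.03. Without D316A-Tg 8 the count of higher genes was 271 and without D316A-Tg 7 it was 239, while leaving out any other library gave 153 to 195. With 3 libraries a side within D316A-Tg it was 71, and within WT-Tg 427. The ranking used 5 of these genes, so the counts describe what accompanied them.

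Genes of the muscle lists were found mainly among the large differences. Of the 57 genes set apart with a log2 fold change of at least 5, 34 were in the muscle lists. Of the 54 with a log2 fold change of 2 to 5, 18 were, and of the 33 with a log2 fold change of 1 to 2, 1 was. The 57 and the 34 include the 5 markers that ranked the libraries, and 52 of the 57 remain without them. The highest chow level was in WT-Tg 6 for 114 of the 144 genes and in WT-Tg 5 for 21. For 72 of the 144, levels fell in the order of the score through all 4 muscle-rich libraries.

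**Figure D2:**
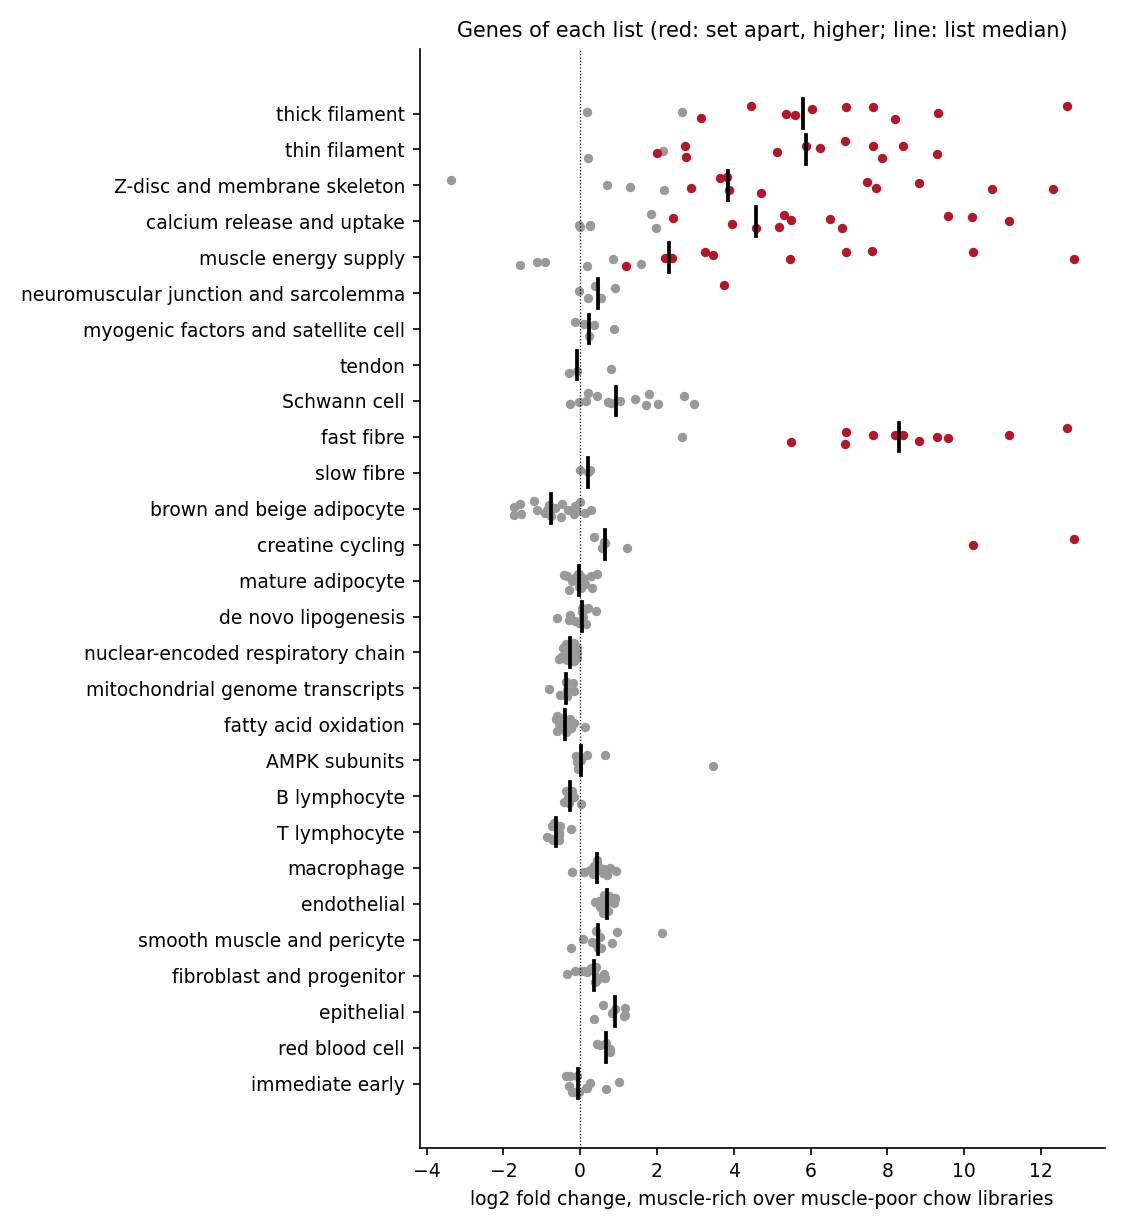
Each point is a gene that passed the filter, at its log2 fold change (muscle-rich over muscle-poor chow libraries, 4 against 4), with 1 row for each of the 28 gene lists, red for genes set apart as higher and a black line at the list median. Medians of the 5 contractile, calcium and energy lists lie between 2.31 and 5.87 and that of the fast fibre list at 8.30, while lists of adipocyte, mitochondrial and immune genes lie within 1 of 0. Points and medians include the markers that ranked the libraries.

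Thick filament genes were higher in the muscle-rich libraries for nearly every member that passed the filter. Of 18 listed genes 12 passed and 10 were set apart (9 of 11 without the marker Myh4), with a list median log2 fold change of 5.81. Mylpf, the regulatory light chain of fast myosin, was at 608, 160, 106 and 54.4 CPM against 2.12, 1.22, 2.36 and 1.86 CPM, a log2 fold change of 6.93 ± 0.89 (SE). Ttn, which encodes titin, the molecular spring that spans from Z-disc to M-line, was at 541, 137, 78.7 and 54.3 CPM against 8.89, 0.49, 3.54 and 6.78 CPM. Mybpc2, fast myosin binding protein C, had a log2 fold change of 6.04 ± 1.43 and Myom2, the M-line protein myomesin 2, one of 7.62 ± 1.20. Mylk2, the skeletal myosin light chain kinase, was at 79.3, 13.8, 5.00 and 2.88 CPM and had 2 counts in the 4 muscle-poor libraries together against 1712 in the muscle-rich ones, a ratio of 810 with an exact 95% interval for counting error of 224 to 6698. The 2 members that passed without being set apart were Myl1, where D316A-Tg 7 at 37.2 CPM exceeded D316A-Tg 8 at 29.2 CPM, and Myom3.

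The thin filament showed the same picture. Of 13 genes that passed, 11 were set apart, or 9 of 11 without the markers Acta1 and Tnnt3. The median log2 fold change was 5.87, or 5.21 with the genes at 0 in all muscle-poor libraries taken at their lower bound. Actn3, the α-actinin of fast fibres, was at 546, 112, 31.9 and 10.9 CPM against 0.103, 0.163, 0.559 and 0.256 CPM. Tnni2, fast troponin I, was at 530, 142, 61 and 38 CPM against 1.96, 0.163, 2.67 and 1.54 CPM. Neb, which encodes nebulin, the ruler of thin filament length, was at 264, 52.3, 35.8 and 16.7 CPM against 1.76, 2.2, 1.68 and 4.93 CPM. In all 3 the order of the muscle-rich libraries was that of the score. Tnnc2, fast troponin C, had a log2 fold change of 8.39 ± 1.28, with 74% of its exon length shared with another gene. Lmod2, a leiomodin that lengthens thin filaments, departed from this order: it was at 0.766, 0.693, 3.4 and 2.29 CPM and at 0 in every muscle-poor library, at least 36.9-fold lower there with a floor of 3 counts over the group.

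At the Z-disc and the membrane skeleton, 10 of 14 genes that passed were set apart, with a median log2 fold change of 3.85. Xirp2, an actin-binding repeat protein, was at 116, 22.3, 12.3 and 5.23 CPM and Myot, which encodes myotilin of the Z-disc, at 32.5, 7.56, 8.14 and 3.88 CPM. Both were at 0 in the 4 muscle-poor libraries, so Xirp2 was at least 833-fold and Myot at least 276-fold higher. Myoz1, a calcineurin-binding protein of fast Z-discs, was at 152, 39.1, 16.3 and 5.94 CPM against 0.155, 0.0816, 0.124 and 0.064 CPM. The atrophy ubiquitin ligase Trim63 had 462 counts in muscle-rich and 2 in muscle-poor libraries. Ldb3, a Z-disc scaffold, differed less, with a log2 fold change of 3.83 ± 0.91. Des and Flnc, which smooth muscle also expresses, were at 53.8 to 187 CPM and 5.58 to 38.2 CPM in muscle-rich libraries and overlapped the muscle-poor range. Of the 14 genes, 13 had log2 fold changes above 0. The remaining member went strongly the other way, at -3.37, without being set apart.

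Genes of calcium release and uptake were set apart in 11 of 17 cases (10 of 16 without the marker Atp2a1), with a median log2 fold change of 4.58. Ryr1, the ryanodine receptor of the sarcoplasmic reticulum, was at 262, 42.7, 23.1 and 10.1 CPM against 2.79, 1.14, 2.67 and 1.79 CPM, a log2 fold change of 5.32 ± 1.11. Casq1, the calsequestrin that stores calcium in fast fibres, was at 199, 54.2, 27.3 and 10.1 CPM against 2.74, 1.63, 0.931 and 1.15 CPM. Pvalb, the calcium buffer parvalbumin, was at 660, 199, 61.1 and 22.4 CPM against 0.0517, 0.0816, 0.124 and 0.128 CPM. For each of these the libraries kept the order of the score. Trdn, which encodes triadin that links the receptor to calsequestrin, had 1895 counts in muscle-rich libraries and 1 in muscle-poor ones. The pump genes parted from each other. Atp2a2, the SERCA2 gene used by slow fibres, cardiac muscle and non-muscle cells, was at 137, 105, 131 and 115 CPM in muscle-rich and at 117, 141, 103 and 124 CPM in muscle-poor libraries, a log2 fold change of 0.01 ± 0.16. The count ratio of Atp2a1 to Atp2a2 accordingly ran from 12.1 in WT-Tg 6 through 3.55, 1.20 and 0.495 to between 0.00465 and 0.00883 in the muscle-poor libraries. Ryr3, a receptor isoform outside adult limb muscle fibres, did not follow the score, with 0.235 to 7.58 CPM against 0 to 5.69 CPM.

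**Figure D3:**
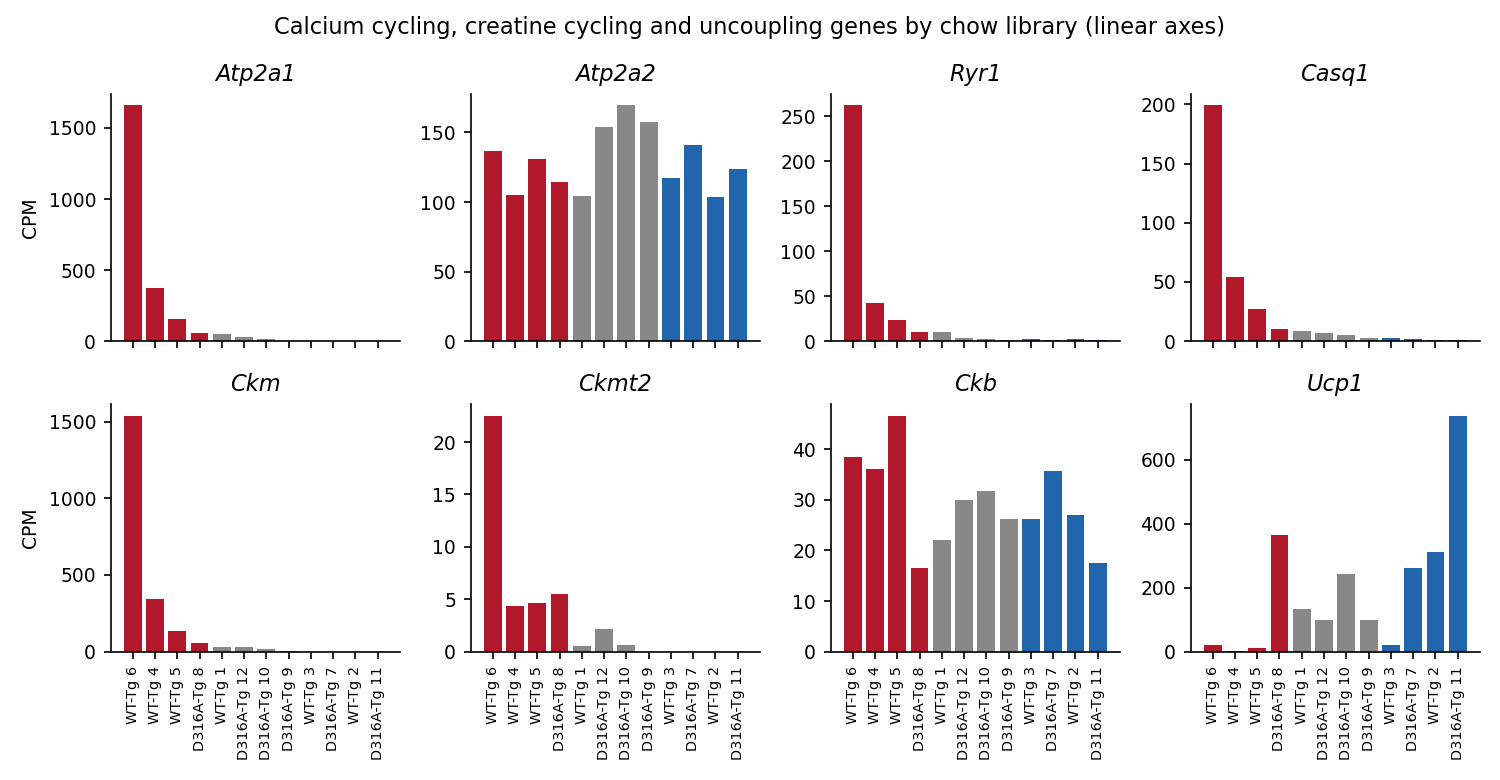
CPM (linear axes from 0) of 8 genes of calcium cycling, creatine cycling and uncoupling in the 12 chow libraries in order of score, with red for muscle-rich, grey for middle and blue for muscle-poor. Atp2a1, Ryr1, Casq1, Ckm and Ckmt2 peak in WT-Tg 6 and are near 0 in blue, while Atp2a2 (103 to 169.6 CPM) and Ckb (16.5 to 46.6 CPM) show no such peak and Ucp1 is highest in D316A-Tg 11.

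Of the genes that supply energy to fibres 10 of 16 were set apart (9 of 15 without the marker Ckm), with a median log2 fold change of 2.31. Pygm, muscle glycogen phosphorylase, was at 538, 117, 48.5 and 16.6 CPM against 6.05, 2.28, 5.15 and 2.81 CPM, and Pgam2, the muscle phosphoglycerate mutase, at 103, 27.6, 13 and 6.41 CPM against 0.258, 0.0816, 0.31 and 0.064 CPM. Ampd1, muscle AMP deaminase, was at 73.4, 18.8, 6.8 and 5.94 CPM against 3.15, 0, 2.54 and 3.71 CPM. Cox6a2, the respiratory chain subunit of heart and skeletal muscle, was at 17, 6.75, 3.91 and 2.47 CPM against 0.982, 0, 1.12 and 1.02 CPM. Members of this list that brown and beige fat also use were not set apart: Cox7a1, Cox8b and Fabp3 had log2 fold changes of -1.13, -0.91 and -1.55.

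Creatine cycling divided along the same line. Ckmt2, the mitochondrial creatine kinase of sarcomeric muscle, was at 22.5, 4.33, 4.68 and 5.47 CPM and at 0 in every muscle-poor library, at least 197-fold lower there. With Ckm it made up the 2 genes of 7 that were set apart. Ckb, the brain-type creatine kinase found in fat, was at 38.4, 36.1, 46.6 and 16.5 CPM against 26.2, 35.7, 27.1 and 17.6 CPM. Slc6a8, the creatine transporter, was at 23.8, 11.4, 20.7 and 10.4 CPM against 10.9, 13.4, 9.99 and 8.51 CPM, and Gatm and Gamt, which make creatine, had log2 fold changes of 1.21 ± 0.52 and 0.64 ± 0.51 with overlapping libraries.

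Of the 28 lists, that of fast fibre genes had the highest median log2 fold change, 8.30, with 11 of 12 genes set apart. Both values include the markers Myh4, Tnnt3 and Atp2a1, which ranked the libraries, and without them 8 of 9 were set apart. Of 10 slow fibre genes only 3 passed the filter and 0 were set apart. Myh7, the slow myosin heavy chain, did not pass: it was at 0, 0.635, 0.0641 and 0.294 CPM in muscle-rich and 0.362, 0, 0.434 and 0.512 CPM in muscle-poor libraries. Tnnt1, slow troponin T, was at 0.53 to 1.79 CPM against 0.326 to 1.47 CPM.

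Myosin isoforms differed between muscle-rich libraries. Per kilobase of exon and among the 6 myosin heavy chain genes Myh1, Myh2, Myh3, Myh4, Myh7 and Myh8, Myh4 took 99.7% in WT-Tg 6 and 97.6% in WT-Tg 4, but 41.01% in WT-Tg 5 and 28.9% in D316A-Tg 8. Myh1 took 56.0% and 69.5% in the last 2 libraries, against 0.242% and 1.90% in WT-Tg 6 and WT-Tg 4. In CPM, Myh1 was at 9.19, 16.1, 270 and 119 and Myh2 at 1.24, 4.16, 15.6 and 2.59, so both peaked in WT-Tg 5, a library with less Myh4 than WT-Tg 6 and WT-Tg 4. Mb, the oxygen store myoglobin of oxidative fibres, was at 2.12, 3.58, 32.1 and 18.7 CPM and was also highest in WT-Tg 5 and D316A-Tg 8. Mybpc1, the slow-type myosin binding protein C, was at 4.89, 15.1, 32.6 and 15.3 CPM. With Lmod2, these are the 5 of the 53 set-apart genes in muscle lists whose highest level was not in WT-Tg 6. Exons of Mb overlap another gene over 31.9% of their length.

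**Figure D4:**
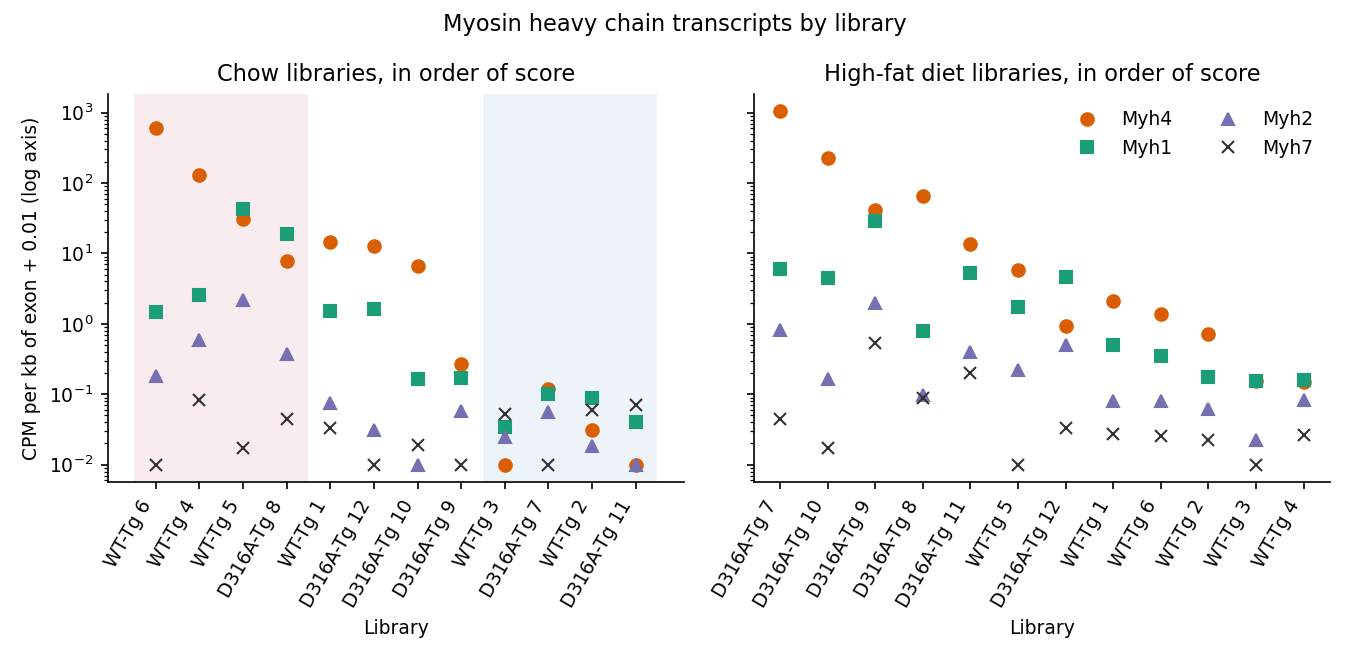
CPM per kilobase of exon plus 0.01, on a log axis, of Myh4, Myh1, Myh2 and Myh7 in chow (left, red and blue bands for muscle-rich and muscle-poor) and HFD libraries (right), in order of score. Myh4 leads in most libraries with a high score, whereas Myh1 exceeds Myh4 in D316A-Tg 8 and WT-Tg 5 among muscle-rich chow libraries and in D316A-Tg 12 among HFD libraries. With both genes at low levels, Myh1 is also the higher in chow WT-Tg 3, WT-Tg 2 and D316A-Tg 11 and in HFD WT-Tg 4 (0.148 against 0.141).

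Few genes of the neuromuscular junction, of satellite cells and of tendon passed the filter, and 1 of those that did was set apart. It was among the 6 junction and sarcolemma genes that passed, whose median log2 fold change was 0.46: the muscle chloride channel gene Clcn1, at 9.25, 1.96, 1.41 and 0.705 CPM against 0.155, 0.245, 0.372 and 0.192 CPM. Of 16 myogenic and satellite cell genes 5 passed and 0 were set apart, with a median log2 fold change of 0.23, and of 10 tendon genes 3 passed and 0 were set apart. In the HFD test described below, 0 of 12 genes tested from these 3 lists passed in edgeR, 5 had an unadjusted p below 0.05, and 1 passed with DESeq2 and 2 with limma voom. Counts over all genes with DESeq2 and limma voom are given below, and none is given for the unadjusted p. Mef2c, a factor of muscle and of lymphocytes, was at 50.5, 87.5, 22.4 and 84.6 CPM against 79.7, 9.3, 70.7 and 48.7 CPM.

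Schwann cell genes, which mark peripheral nerve, were highest in a single library. Prx, periaxin of the myelin sheath, was at 20.3, 5.71, 77.6 and 1.41 CPM against 7.24, 3.75, 3.1 and 1.98 CPM. WT-Tg 5 stood above the other libraries, and D316A-Tg 8 lay below every muscle-poor library. None of the 14 Schwann cell genes was set apart, although their median log2 fold change was 0.92.

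Adipocyte genes were similar on both sides. None of 17 mature adipocyte genes and none of 12 genes of fatty acid synthesis was set apart, with median log2 fold changes of -0.03 and 0.04. Pparg, the adipocyte master regulator, was at 398, 153, 304 and 133 CPM against 194, 244, 146 and 145 CPM. On chow, mitochondrial genes leaned the other way from the muscle genes without being set apart, which was not so for their median slopes on HFD (below). All 59 nuclear genes of the respiratory chain had log2 fold changes below 0, with a median of -0.27, as did the 10 mitochondrial genome transcripts that passed, with a median of -0.36. Of all 15560 genes tested, 6957 had log2 fold changes above 0. The median was -0.40 for 19 fatty acid oxidation genes. Between genotypes on chow, Cox6c, a cytochrome c oxidase subunit, and Slc25a20, the carnitine carrier, were higher in D316A-Tg by log2 1.18 (adjusted p = 0.0143) and 1.12 (adjusted p = 0.0192) in edgeR's quasi-likelihood test, and fewer muscle-rich than muscle-poor libraries were D316A-Tg. Both genes are examples, and 8.56% of 15249 genes passed in that comparison. The part of genotype in these medians was not tested.

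On chow, Ucp1 and the thermogenic genes of brown and beige fat were not higher where muscle transcript was higher. Ucp1 was at 20, 2.71, 11.9 and 364 CPM in the muscle-rich libraries and at 19.6, 260, 310 and 737 CPM in the muscle-poor libraries, a log2 fold change of -1.73 ± 1.51. Each side thus held low and high libraries. None of 21 brown and beige genes was set apart, and their median log2 fold change was -0.76. Dio2, the deiodinase that activates thyroid hormone, and Elovl3, a fatty acid elongase of brown fat, had log2 fold changes of -1.72 ± 0.87 and -1.53 ± 1.09.

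Among other cell types, 0 genes were set apart in the lists of B lymphocytes (10 genes passed), T lymphocytes (10), macrophages (14), endothelium (12), smooth muscle and pericytes (11), fibroblasts (14), epithelium (7) and red blood cells (5). All 12 endothelial genes had log2 fold changes above 0, beside 6957 of all 15560 genes tested, with a median of 0.70. Cdh5, the endothelial cadherin, was at 218, 91, 190 and 68.8 CPM against 99, 65.2, 86.5 and 51.6 CPM. Medians were 0.68 for red blood cell genes, 0.90 for epithelial genes and 0.45 for smooth muscle genes. The range of summed CPM over the endothelial list was 578 to 1259 in muscle-rich and 435 to 765 in muscle-poor libraries. The part of vessels, blood or nerve in the muscle differences was not tested. Immediate early genes, which respond to handling of tissue, had a median of -0.05.

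AMPK subunits included 1 gene with a high fold that was not set apart. Prkag3, the γ3 subunit of fast muscle, was at 14.7, 3.75, 3.53 and 0.118 CPM against 0.569, 0.49, 0.745 and 0.192 CPM. D316A-Tg 8 thus had less Prkag3 than any muscle-poor library. Prkag1, the gene of the transgenic subunit, was at 425, 333, 390 and 317 CPM against 350, 535, 373 and 295 CPM (log2 fold change -0.08 ± 0.24), with 43.7% of its exon length shared with other genes.

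Outside the lists, 91 genes were set apart as higher, and the 10 with the largest fold and a mean of at least 5 CPM are mostly known from striated muscle. Klhl31, a Kelch protein of muscle, was at 36.4, 7.85, 5.39 and 1.59 CPM and at 0 in all 4 muscle-poor libraries, at least 273-fold lower there. Eef1a2, the elongation factor isoform of muscle and neurons, was at 68.8, 15.8, 9.3 and 2.7 CPM against 0.103, 0.163, 0.0621 and 0 CPM. Hfe2, hemojuvelin of iron regulation, was at 38.6, 8.77, 6.16 and 1.23 CPM, and Klhl41, which stabilises nebulin, at 32.3, 9.47, 11.9 and 3.7 CPM, with at most 0.408 CPM in any muscle-poor library. Apobec2, a deaminase family member of muscle, was at 28.8, 11.6, 15.6 and 6.88 CPM against 0.31, 0, 0.496 and 0.256 CPM. Mypn, which encodes the Z-disc protein myopalladin, and Art1, an ADP-ribosyltransferase whose exons overlap another gene over 36.5% of their length, had log2 fold changes of 6.55 ± 1.44 and 6.65 ± 1.14. The kinase gene Mylk4, the ribosomal protein gene Rpl3l and Smpx each had 3 counts in the muscle-poor libraries together, against 1430, 653 and 523 in the muscle-rich ones.

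The 2 genes set apart as lower were Ripk4, a kinase of epithelial differentiation, and Hlf, a clock-controlled transcription factor. Ripk4 was at 3.36, 2.14, 4.36 and 3.64 CPM against 7.86, 20.2, 4.41 and 13.3 CPM, so WT-Tg 5 and WT-Tg 2 differed by little. Hlf was at 10.1, 8.95, 8.4 and 7.29 CPM against 35.4, 10.5, 26.1 and 32.6 CPM, with D316A-Tg 7 near the muscle-rich level. With 3 libraries a side within D316A-Tg both log2 fold changes had the opposite sign, at 0.57 for Ripk4 and 1.36 for Hlf.

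The 4 middle libraries took no part in the choice of the set-apart genes. Leaving the markers aside, 102 of the 139 genes set apart as higher were above all 4 muscle-poor libraries in WT-Tg 1, or 73.4%, beside 15.7% of all genes tested. The shares were 62.6% in D316A-Tg 12 beside 24.5% of all genes, 44.6% in D316A-Tg 10 beside 25.9%, and 29.5% in D316A-Tg 9 beside 22.1%. The shares fell in the order of the score, although the score itself came from the same libraries. The set-apart genes were chosen for low levels in the muscle-poor libraries, so the shares of all genes are not what would be found for them without a difference.

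HFD libraries, which the ranking did not use, gave a test. Their scores ran from 1.33 to 4.82 in WT-Tg and from 4.26 to 11.65 in D316A-Tg. Each gene was fitted on the score with a genotype term in the edgeR quasi-likelihood model, the slope being the log2 change per unit of score. Of 14649 genes tested 117 had a positive slope at an adjusted p below 0.05, which is 0.799%, and 2 a negative one, which is 0.0137%. Of the 139 chow genes without the markers, 115 were tested on HFD and 70 had a positive slope that passed, 60.9% of those tested. Slopes were above 0 for 105 of the 115, with a median of 0.60, beside 44.4% of all genes with slopes above 0. In the other direction, 70 of the 104 non-marker genes called on HFD and tested on chow were set apart there, or 67.3%.

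The overlap was concentrated in genes with a large fold on chow. With a log2 fold change of at least 5 on chow, 36 of 42 non-marker genes passed on HFD, with 2 to 5 it was 32 of 44, and with 1 to 2 it was 2 of 29. Genes set apart on chow with HFD slopes of 0 or less numbered 10, all outside the lists. They included the matrix protease gene Mmp3, at 45.3, 65.6, 89.8 and 43.5 CPM against 21.6, 38.3, 18.7 and 12.3 CPM on chow with an HFD slope of -0.08 ± 0.13, and are named after their values were seen.

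**Figure D5:**
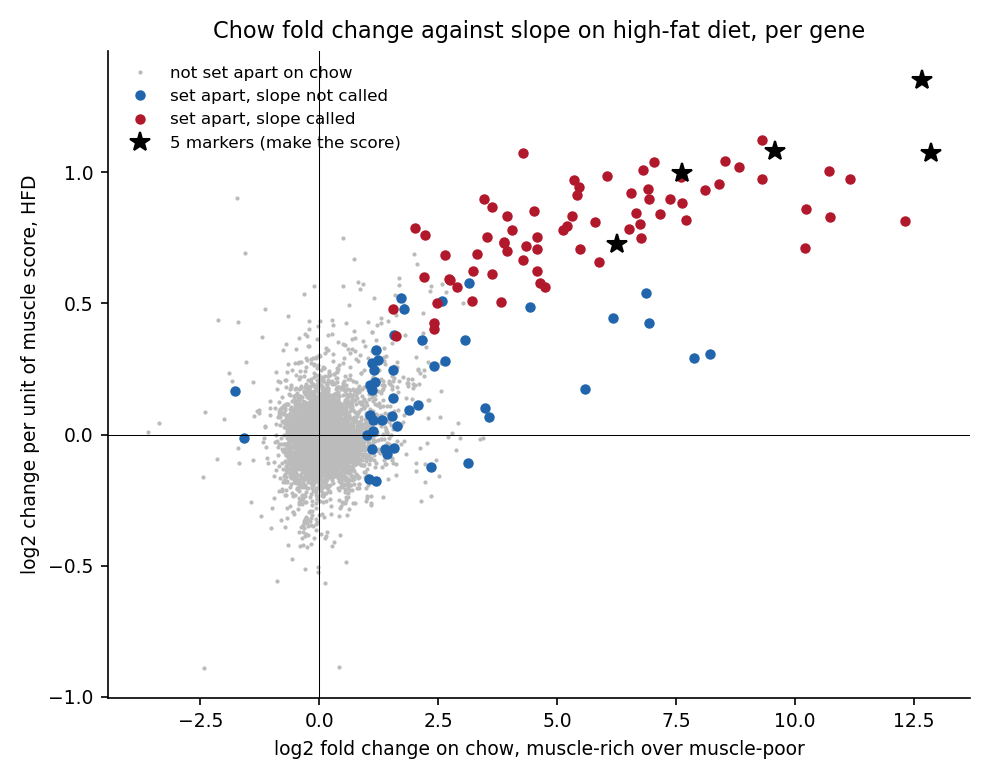
Each point is a gene tested on both diets, at its log2 fold change on chow (muscle-rich over muscle-poor) and its slope on HFD (log2 change per unit of muscle score, genotype in the model). Genes set apart on chow with a slope that passed (red) lie to the upper right with the 5 markers (stars), which make up the score. Those whose slope did not pass (blue) include most genes with a chow log2 fold change of 1 to 2, and others at larger folds, such as Myh1 and Lmod2.

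By role, and leaving out the 5 markers that make up the score, slopes passed on HFD for 6 of 11 thick filament genes, 8 of 10 thin filament genes, 10 of 12 Z-disc genes, 11 of 14 calcium genes and 9 of 15 energy genes. They also passed for 8 of 9 fast fibre genes and 0 of 2 slow fibre genes, neither of which had an unadjusted p below 0.05 or passed with DESeq2 or limma voom. Mylpf, at 1.503 to 12.3 CPM in WT-Tg and 11.3 to 1083 CPM in D316A-Tg libraries on HFD, had a slope of 0.90 ± 0.03 (adjusted p = 1.4e-08). Ryr1 had a slope of 0.83 ± 0.06 (adjusted p = 9.89e-06) and Ckmt2 one of 0.86 ± 0.07 (adjusted p = 3.08e-05). Genes outside the lists with the lowest adjusted p were Eef1a2 (slope 0.93 ± 0.03, adjusted p = 5.86e-08), Mylk4, Mypn, Klhl41 and Rbfox1, a splicing factor of muscle and neurons. The 5 set-apart genes of the muscle lists that peaked in WT-Tg 5 on chow did not pass: slopes were 0.31 ± 0.25 for Myh1 (adjusted p = 0.953), 0.17 ± 0.20 for Myh2 (adjusted p = 0.969), 0.42 ± 0.18 for Mb (adjusted p = 0.739), 0.49 ± 0.18 for Mybpc1 (adjusted p = 0.639) and 0.29 ± 0.24 for Lmod2 (adjusted p = 0.953). On HFD too, Myh1 took unequal shares of the myosin transcript, at 75.8% in D316A-Tg 12 and 39.9% in D316A-Tg 9 but 0.567% in D316A-Tg 7.

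Of 260 genes tested from the lists other than muscle parts, creatine cycling and fast fibres, among them adipocyte, respiratory chain, fatty acid, brown and beige, immune, vascular and Schwann cell genes, 0 had a slope that passed in edgeR. At an unadjusted p below 0.05 there were 29, and 6 passed with DESeq2 and 1 with limma voom. Over all 14649 genes, DESeq2 called 189 positive and 26 negative slopes, and limma voom 137 and 2. The share of all genes at the unadjusted p is not given here, so the 29 cannot be set against it. Median slopes of some lists had the opposite sign to their chow medians. They were 0.21 for brown and beige genes, 0.06 for nuclear respiratory chain genes, 0.08 for mitochondrial genome transcripts and 0.05 for fatty acid oxidation. The median slope of all genes tested was -0.005. Ucp1 had a slope of 0.90 ± 0.35 (adjusted p = 0.666), Prkag1 0.15 ± 0.04 (adjusted p = 0.162) and Atp2a2 -0.02 ± 0.02 (adjusted p = 0.962). The negative slopes were those of Rgs7bp, which anchors a regulator of G protein signalling (-0.20 ± 0.03, adjusted p = 0.00357), and Ighm, the immunoglobulin heavy constant region (-0.22 ± 0.04, adjusted p = 0.00973), the latter named because only 2 genes were called. Without D316A-Tg 7, the HFD library with the highest score, 47 slopes were positive and 0 negative, and all 47 were among the 117. WT-Tg libraries alone, whose scores span a narrow range, gave 4 positive slopes and D316A-Tg libraries alone 82.

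The markers were also compared between genotypes over all 12 chow libraries. The ranking used these same levels but not the genotype labels. Acta1 ranged from 3.17 to 1663 CPM in WT-Tg (median 151, n = 6) and from 3.71 to 106 CPM in D316A-Tg (median 22.02, n = 6). Myh4 ranged from 0 to 3593 CPM (median 137) and from 0 to 75.9 CPM (median 20.6). Ckm ranged from 0.0621 to 1538 CPM (median 82.8) and from 0 to 56.8 CPM (median 8.05), Tnnt3 from 2.43 to 1237 CPM (median 78.5) and from 0.734 to 56.3 CPM (median 8.09), and Atp2a1 from 0.496 to 1659 CPM (median 104) and from 0.576 to 56.7 CPM (median 7.29). For all 5 genes the ranges of the genotypes overlapped widely. Log2 fold changes of D316A-Tg over WT-Tg were -3.47 ± 1.37 for Acta1, -4.82 ± 2.13 for Myh4, -4.27 ± 2.00 for Ckm, -4.03 ± 1.56 for Tnnt3 and -4.45 ± 1.78 for Atp2a1. In edgeR's quasi-likelihood test 0 of the 5 passed, with adjusted p from 0.113 to 0.175, in a comparison where 8.56% of 15249 genes did. At an unadjusted p below 0.05 there were 4, and the share of all genes at that p is not given here. Exact two-sided permutation tests of log2(CPM + 1) gave p from 0.134 to 0.266. DESeq2 gave adjusted p of 0.0217 for Acta1, 0.016 for Tnnt3 and 0.0166 for Atp2a1, so for these 3 genes the call depended on the tool.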

How the data were processed

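Messenger RNA of whole inguinal fat was sequenced in 24 libraries. RNA with an integrity number below 7 was not used and the kit was stranded TruSeq, per the labels' protocols. The authors deposited whole-number read counts per gene in 1 table per diet, with 39017 genes for chow and 38483 for HFD, and all columns were used. Per the submitters' processing notes, the tools were STAR 2.4.1, DESeq2, FastQC and bcl2fastq and the build mm10; the labels give 2.20.0.422 (chow) and 2.16.0.10 (HFD) as base-call converter versions. How reads were counted, with which annotation and strand setting, is not given in the sources used here.

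Gene positions and exon overlaps came from GENCODE M21 (GRCm38, 1-based), which held 96.4% of the chow identifiers, and promoters from RefSeq (GRCm38.p6). Fits used edgeR 4.0.16 in R 4.3.3: robust quasi-likelihood, TMM factors from the 12 libraries of a diet, and filterByExpr. For the chow contrast filterByExpr was grouped by muscle-rich and muscle-poor. Adjusted p-values are Benjamini-Hochberg over all genes tested, called below 0.05. The chow contrast was fitted on the 8 libraries and carries no p. A gene at 0 in all 4 muscle-poor libraries was set against a floor of 3 counts over that group. Intervals and floors cover counting error only, and 1 count is under 0.1 CPM. Counts of any 2 replicate libraries gave a chi-square of 13.5 or more per degree of freedom, and none was treated as a copy. Functions were tested on simulated data. The markers, 28 lists (392 genes) and tests were chosen with earlier results of these data known. Named genes were the markers, Prkag1 and Ucp1, per list up to 5 (muscle parts 8) genes with the largest fold and a mean of at least 1 CPM, and, outside the lists, the 10 per direction with the largest fold and at least 5 CPM and the 5 per direction with the lowest adjusted p on HFD; genes named outside this rule illustrate a list's counts and were picked with their values in view. The alternatives tried were RLE or column-total scaling, DESeq2 1.42.0, limma 3.58.1 voom, other filters, added terms, other numbers of libraries, other rankings and leaving out each library.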

Additional observations from a re-analysis of the deposited data

Results flagged for a closer look

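The D316A-Tg effect on the markers differed between diets in a test whose chow values are those that ranked the libraries, though the ranking did not use genotype. In a fit with a genotype-by-diet term over all 24 libraries and 16072 genes (edgeR quasi-likelihood test, added after the data were seen), the D316A-Tg over WT-Tg log2 fold change was -3.46 on chow and 4.98 on HFD for Acta1, a difference of 8.44 (adjusted p = 0.00573). The difference was 11.93 for Myh4 (adjusted p = 0.0101), 11.2 for Ckm (adjusted p = 0.00889), 10.5 for Tnnt3 (adjusted p = 0.00508) and 11.50 for Atp2a1 (adjusted p = 0.00558). Diet, age and base-call converter version cannot be told apart here, and 2080 of the 16072 genes passed the same test.

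Single libraries stood apart for 17 of 312 checks, all 17 within the sets of 4. Chance alone flags about 1 in 20, a share close to that found. The 312 include checks of the markers, Prkag1 and Ucp1 within each genotype on chow. Repeated checks of genes in several lists are in the 312 but not in the 17. In the muscle-rich set, Ckmt2 was at 22.5 CPM in WT-Tg 6 against 4.33 to 5.47 CPM in the other 3, and Myh11, the myosin of smooth muscle, at 80.6 CPM in WT-Tg 5 against 39.1 to 41.3 CPM. WT-Tg 4 was low for Acaca (474 CPM against 959 to 1094), Uqcrq (115 against 217 to 236), Uqcrc1 (167 against 301 to 338), mt-Nd3 (2.25 against 4.11 to 4.60) and Eci1 (71.3 against 167 to 179). It was rich in lymphocyte transcript, but so was D316A-Tg 8, which was not low for these genes. D316A-Tg 7 was the only muscle-poor library poor in lymphocyte transcript and was low for Cd8b1 (0.571 CPM), Cd3d (0.490 CPM), Cd8a (0.816 CPM), Cd28 (0.408 CPM) and Cd3e (0.653 CPM), where the other 3 were between 27.9 and 168 CPM. It was also low for Rapsn (0.163 CPM against 1.41 to 1.60) and Fmod (1.14 CPM against 14.03 to 17.4), while Cox6a2 was at 0 against 0.982 to 1.12 CPM. Trdn was at 0.0816 CPM in D316A-Tg 7, which is 1 count, and at 0 in the other 3. Cnn1 was at 1.18 CPM in WT-Tg 2 against 0.245 to 0.362 CPM.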

How the results depend on the processing

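No paired analysis was possible because WT-Tg libraries are numbered 1 to 6 and D316A-Tg libraries 7 to 12, so the groups compared share no number. The count of chow genes set apart as higher (144) was 141 to 154 under RLE scaling, column totals, DESeq2, a genotype term, a B lymphocyte term or a ranking by the other filament genes. It was 248 with no filter beyond 1 count, 88 with a mean count of at least 50, 350 with 3 against 3 libraries, 41 with 6 against 6, and, with 3 against 3 in splits chosen after seeing the data, 90 within lymphocyte-rich, 255 within lymphocyte-poor, 427 within WT-Tg and 71 within D316A-Tg libraries; 71, 63, 128 and 29 of these were among the 144. Leaving out 1 library gave 153 to 271. The genotype and B lymphocyte terms entered only the fitted fold, and overlap was judged on CPM without them. Their counts therefore do not show whether the set holds after adjustment for either. The count of lower genes (2) was 1 with RLE and with column totals, 25 without the filter, 48 with 3 against 3, 0 with 6 against 6, 8 with the other ranking, and 14, 32, 252 and 8 in the 4 splits; leaving out 1 library gave 4 to 46, every one of the 8 libraries moving it by over 1.5 times. Ripk4 and Hlf reversed within D316A-Tg (0.57 and 1.36).

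Positive HFD slopes (117) numbered 189 with DESeq2, 214 without the filter, 576 with no genotype term, 177 with a B lymphocyte term and 4 in WT-Tg alone; leaving out 1 library gave 47 to 159. Negative slopes (2) numbered 26 with DESeq2, 437 with no genotype term, 68 with the B lymphocyte term, 0 in WT-Tg alone, 5 with the other filament score and 0 to 6 with 1 library left out (0 without D316A-Tg 7, 6 without WT-Tg 5, 4 without D316A-Tg 12). All 117 positive calls were kept by DESeq2. The named genes called in the main fit, markers included, gave 951 slopes under alternatives, of which 31 lost the call and 0 changed sign. Genes that failed the filter of an alternative are not in the 951. WT-Tg libraries alone thus gave only 4 slopes that kept the call and 11 that lost it, while under RLE scaling 45 kept it. DESeq2 moved the chow genotype difference past the threshold for Acta1 (-3.47), Tnnt3 (-4.03) and Atp2a1 (-4.45); with 1 library left out, values were -4.22 to -1.92 for Acta1, -5.45 to -2.94 for Myh4, -5.12 to -2.53 for Ckm, -4.87 to -2.45 for Tnnt3 and -5.35 to -2.77 for Atp2a1, none past it in edgeR. The causes were not tested. Depth limits genes with few counts in muscle-poor libraries, 11 of the 144 having 0 there and 12 having 1 to 3.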
